A study of Drosophila melanogaster with 19 samples.

Results

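The segment polarity genes set the front-to-back pattern within each body segment of the *Drosophila* embryo. The 10 genes described here were given as a list of symbols, *en*, *inv*, *hh*, *wg*, *ptc*, *ci*, *gsb*, *gsb-n*, *mid* and *nkd*, and each was matched to its gene identifier in a table of RNA-seq counts. All 10 passed the filter on low counts, among 11978 genes tested of 17669 in the table. Their levels were measured in 19 libraries of whole embryos picked at stages 12 to 14, from 5 genotypes.

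The null embryos (null, n = 4 libraries) carried a pair of different *chiffon* null alleles, named ETBE3 and DsRed in the study, and were recognised by GFP driven by *Actin-Gal4*. Embryos of 3 further genotypes had this mutant background plus 1 *chiffon* transgene under the regulatory sequences of the gene itself. In FL (3 libraries) the transgene is full length. In FLWF24 (4 libraries) it is interrupted by a stop codon near its start, and in ΔN (4 libraries) the N-terminal region is missing. FLWF24 and ΔN embryos thus have Chiffon-B, which builds the histone acetyltransferase complex CHAT, without Chiffon-A, which activates the replication kinase DDK. The WT embryos (n = 4) expressed GFP under *Actin-Gal4* and carried no *chiffon* mutation. Each library was made from a pool of hand-picked embryos, so it is a mean over all their tissues. In such material fewer cells of a type and less RNA per cell cannot be told apart.

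As background, cells at the back of each segmental unit express the homeodomain proteins Engrailed and Invected and send the Hedgehog signal. Their anterior neighbours receive it through Patched and the transcription factor Cubitus interruptus, and express the Wnt ligand Wingless, which in turn maintains *en* and *hh* next door. At the stages sampled here the stripes are established, and many of these genes are also used in the nervous system, the gut and other organs.

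Libraries held 5161281 to 21621677 gene counts after rRNA genes were left out, and 63.6% to 96.0% of all counted reads were not assigned to a gene. The largest class of these had more than 1 place of alignment (45% to 85.3% of all counted reads). The *chiffon* transcript was at 22.3 to 38.0 CPM (counts of a gene relative to the TMM-scaled library size) in the null libraries and at 213.2 to 548.6 CPM in the 15 others. This sets null apart from the rest. ΔN replicates 1 to 3 held 482.8 to 548.6 CPM. ΔN replicate 4, at 250.4 CPM, lay within the range of the FL, FLWF24 and WT libraries (213.2 to 313.3 CPM). A late-minus-early score, the mean log2 level of late muscle and cuticle genes minus that of early embryo genes, averaged 5.42 for null (SD 1.26, n = 4). It was lower for the other genotypes, with means of 1.01 for FL (SD 0.77, n = 3), 2.57 for FLWF24 (SD 0.48, n = 4), 2.42 for ΔN (SD 1.5, n = 4) and 3.11 for WT (SD 0.59, n = 4). Null replicate 3 stood apart from the other null libraries. Its score of 3.61 lay inside the range of the 15 other libraries, 0.46 to 4.02, whereas the other 3 null libraries scored 5.53 to 6.35. Markers of neurons and neuroblasts also differed. Summed epidermis markers overlapped, at 1292 to 2920 CPM in null and 1976 to 3058 CPM in the 15 others, as did hemocyte and trachea markers. The summed level of 8 neuron markers was 1501 to 2369 CPM in null and 655.2 to 1454 CPM in the 15 others, while that of 6 neuroblast markers was 291.9 to 555.2 CPM in 3 null libraries and 1161 CPM in null replicate 3, against 802.1 to 1278 CPM in the others. Of 14 late muscle genes 3 were called higher in null than in FL, and 0 genes of the cuticle, early embryo, neuron, neuroblast, epidermis, hemocyte and trachea lists were called in either null comparison by edgeR. The part of age and tissue makeup in the results was not tested.

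The 10 genes differed widely in abundance. Scaled by exonic length, the order in WT was *nkd* at 81.8 ± 11.5 CPM per kb (SD, n = 4), *ptc* at 81.2 ± 8.90, *ci* at 57.2 ± 4.01, *en* at 39.2 ± 6.48, *mid* at 28.8 ± 7.24, *hh* at 23.0 ± 3.33, *inv* at 20.9 ± 4.82, *wg* at 18.8 ± 3.08, *gsb-n* at 16.4 ± 2.80 and *gsb* at 9.80 ± 3.31. Most neighbours in this order overlapped in their 4 libraries. The exceptions were *ptc* over *ci* and *ci* over *en*, where the lowest library of the first lay above the highest of the second. In null embryos *nkd*, *ptc* and *ci* still led, and *inv*, at 7.77 ± 2.59 CPM per kb (n = 4), was at place 9, against place 7 in WT. That place was not particular to null, since *inv* was also at place 9 in FL, at 21.9 CPM per kb, and at place 8 in FLWF24.

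The first question was what loss of *chiffon* did to the set. Of the 10 transcripts, *inv* was the one called changed in null embryos. It was lower there than in FL and lower than in WT, and 0 members were called higher in either comparison. A gene was called at an adjusted p under 0.05 (edgeR quasi-likelihood test, Benjamini-Hochberg over all 11978 genes) and a log2 fold change of 0.5 or more in either direction. By that rule 0.501% of all tested genes were called for null against FL, and 0.634% for null against WT. The fit contained 1 factor of unwanted variation, estimated from differences between replicates (RUV). The factor lay between -2.12 and -0.0039 in the null libraries, 0.67 and 0.83 in FL, and -1.08 and 1.05 in WT. Null and FL did not overlap in it, so factor and genotype cannot be fully separated in that comparison.

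*inv* (FBgn0001269, BDGP6 assembly, chromosome arm 2R, 11474465 to 11509695, plus strand) encodes a homeodomain protein closely related to Engrailed. It was at 35.0, 39.2, 68.7 and 41.1 CPM in null replicates 1 to 4. The FL libraries held 127.1, 129.0 and 132.3 CPM, and the WT libraries 156.3, 116.1, 133.2 and 88.7 CPM. FLWF24 had 99.9, 102.4, 102.3 and 136.6 CPM, and ΔN 153.8, 120.4, 101.2 and 151.8 CPM. All 4 null libraries therefore lay below all 15 others, a pattern shared by 0.609% of tested genes, and their mean of 46.0 ± 15.3 CPM was 37.3% of that of the others (123.4 ± 21.4 CPM, n = 15).

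The log2 fold change of *inv* was -1.32 against FL (SE 0.297, adjusted p 0.0407, edgeR) and -1.33 against WT (SE 0.242, adjusted p 0.00693). Both comparisons use the same null libraries. The call against FL was close to its threshold and was not stable. It was lost when a mean of at least 10 counts was required (adjusted p 0.0516), when the RUV factor was estimated from log2(CPM + 1) (0.0871), when null and FL alone were fitted (0.123), and in 8 of 19 fits that left out 1 library (null 2, FL 2, FL 3, FL 4, FLWF24 1, FLWF24 2, WT 2 or WT 3, with adjusted p-values of 0.0508 to 0.147). The call against WT was kept in 19 of 19 such fits, and was lost when null and WT alone were fitted, with the RUV factor (adjusted p 0.104) or without it (0.0547), and when the late-minus-early score replaced the RUV factor (0.0821). In the model with that score, *inv* stood at -1.18 relative to FL (adjusted p 0.981) and at -1.26 relative to WT.

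*en* (FBgn0000577, 2R, 11524006 to 11528210, minus strand) lies 14310 bp from *inv* with 0 coding genes between them, and the pair is known to share regulatory sequence. It was at 26.8, 40.3, 130.3 and 38.8 CPM in null replicates 1 to 4, and at 90.3 to 149.9 CPM in the 15 other libraries. In null, 3 of the 4 libraries were thus below every other library, and null replicate 3 was inside their range. The log2 fold change was -0.66 against FL (SE 0.392, adjusted p 0.553) and -0.74 against WT (SE 0.314, adjusted p 0.368, edgeR), neither past the threshold. Without null replicate 3, *en* was called lower in both, at -1.75 (adjusted p 0.00393) and -1.58 (adjusted p 0.00107). In that library the log2 ratio of *en* to *inv* was 0.92, against -0.38 to 0.04 in the other 3 null libraries.

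**Figure D1:**
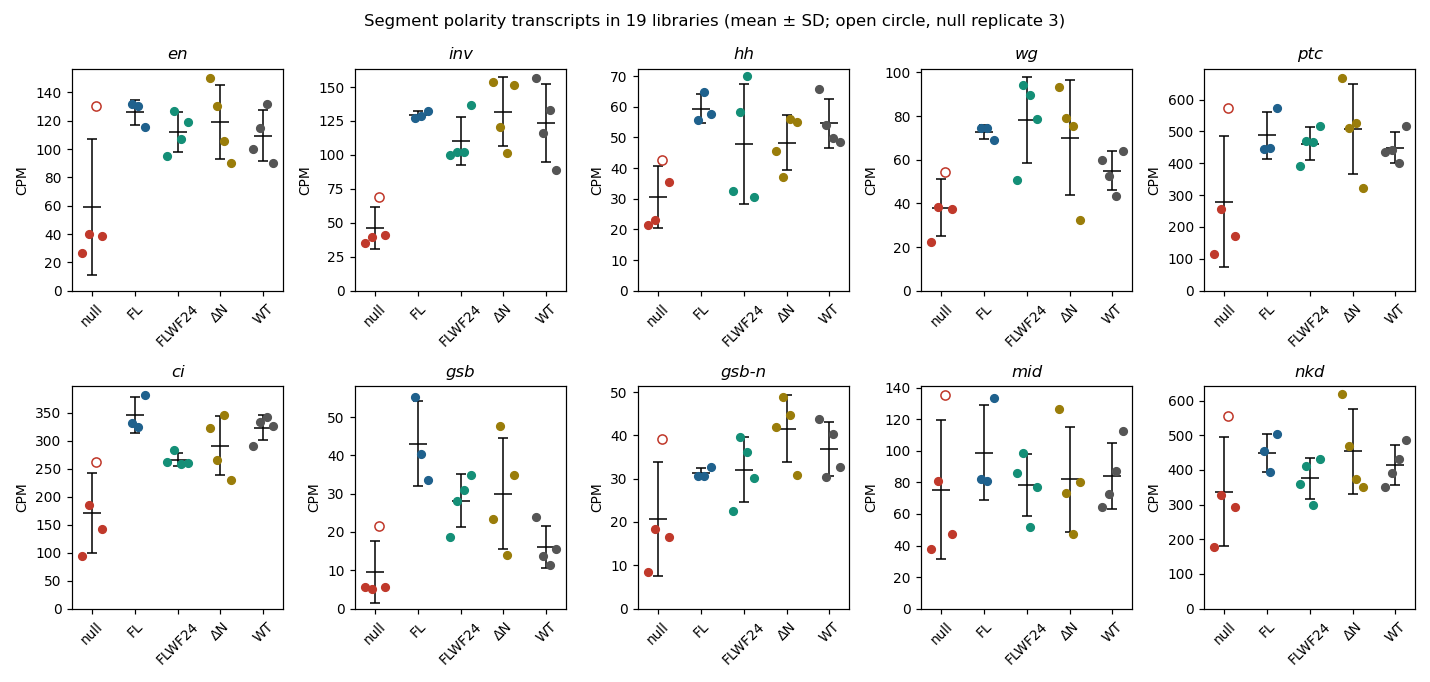
Level of each of the 10 transcripts in CPM (vertical axis, from 0) by genotype. Points are libraries, bars are mean ± SD (n = 3 for FL, 4 for each other genotype), and the open circle is null replicate 3, which was the highest null library for all 10 genes. The null points of *inv* all lie below the lowest of the other libraries, 88.7 CPM.

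*hh* (FBgn0004644, 3R, 23128169 to 23141906, minus strand) encodes the secreted ligand made by the *en* cells. It was at 21.5, 23.0, 42.5 and 35.4 CPM in null, at 55.7, 64.7 and 57.7 CPM in FL and at 65.9, 53.9, 49.8 and 48.6 CPM in WT. The null libraries did not overlap those of FL or WT, but 2 FLWF24 libraries, at 32.5 and 30.6 CPM, reached down among them. The log2 fold changes of -0.91 against FL (SE 0.38, adjusted p 0.335, edgeR) and -0.81 against WT (SE 0.311, adjusted p 0.304) did not pass the test.

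*wg* (FBgn0284084, 2L, 7307159 to 7316265, plus strand) is the Wnt ligand of the neighbouring cells. Its null libraries held 22.5, 38.3, 54.4 and 37.2 CPM, below the FL libraries (68.8 to 74.6 CPM) and overlapping those of WT (43.4 to 64.0 CPM). On the log2 scale it stood at -0.64 relative to FL (adjusted p 0.559, edgeR) and -0.39 against WT (adjusted p 0.698). The lowest of the other libraries, ΔN replicate 4 at 32.5 CPM, was also the library with the fewest gene counts.

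The receptor and the transcription factor of the Hedgehog pathway were the more abundant. *ptc* (FBgn0003892, 2R, 8649649 to 8665223, plus strand), which encodes the Hedgehog receptor and is itself a target of the pathway, was at 116.4, 257.4, 573.8 and 171.8 CPM in null and at 321.6 to 667.5 CPM in the other 15 libraries. Its log2 fold changes were -0.37 against FL (adjusted p 0.818, edgeR) and -0.52 against WT (adjusted p 0.566). The null replicates of *ptc* spanned more than the whole range of FL and WT together.

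*ci* (FBgn0004859, chromosome 4, 47710 to 57041, minus strand) encodes the zinc finger factor that carries the Hedgehog signal to its target genes. It was at 93.1, 185.2, 261.2 and 143.0 CPM in null, at 332.2, 323.9 and 382.4 CPM in FL, and at 290.4, 333.9, 341.6 and 326.2 CPM in WT. FLWF24 held 257.8 to 282.9 CPM and ΔN 229.2 to 345.5 CPM, so null replicate 3 fell among them. The log2 fold change was -0.70 against FL (SE 0.265, adjusted p 0.273, edgeR) and -0.79 against WT (SE 0.21, adjusted p 0.0902). The result against WT was past the threshold in 5 of 17 other fits and in 1 of 19 fits that left out 1 library. Among the 5, adjusted p-values were 0.0101 in DESeq2, 0.0372 without the RUV factor, 0.0244 with the factor from unscaled log counts and 0.0469 with a narrower removal of rRNA genes. It was not past the threshold with the late-minus-early score as covariate (0.511), with null and WT alone (0.359) or with the factor from log2(CPM + 1) (0.151). Of the exonic bases of *ci*, 53 are covered by an antisense transcript, and reads from the opposite strand cannot be told apart if the libraries did not keep strand.

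The neighbouring genes *gsb* and *gsb-n*, 9632 bp apart on 2R, encode paired-domain homeodomain proteins. *gsb* (FBgn0001148, 25061964 to 25064643, plus strand) acts early in the ectoderm with *wg*, and *gsb-n* (FBgn0001147, 25040383 to 25052331, minus strand) is known mainly from the nervous system. *gsb* was at 5.67, 5.005, 21.7 and 5.60 CPM in null, at 55.3, 40.3 and 33.5 CPM in FL and at 23.9, 13.8, 11.3 and 15.6 CPM in WT. It was thus lowest in null and highest in FL, with WT between them and overlapping null only through null replicate 3. The log2 fold change against FL was the most negative of the 10, -1.77 (SE 0.576), with an adjusted p of 0.186 (edgeR). Against WT it was -0.57 (adjusted p 0.718). Without null replicate 3 *gsb* was called lower against FL (-3.00, adjusted p 0.00931) but not against WT (-1.58, adjusted p 0.0938).

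*gsb-n* was at 8.50, 18.4, 39.2 and 16.5 CPM in null and at 22.5 to 48.8 CPM in the other 15 libraries. Its log2 fold change was -0.11 against FL (adjusted p 0.97, edgeR) and -0.61 against WT (adjusted p 0.511). *mid* (FBgn0261963, 2L, 5461639 to 5467610, plus strand), a T-box repressor of *wg*, was at 38.0, 80.9, 135.6 and 47.1 CPM in null and at 47.3 to 133.5 CPM elsewhere. *nkd* (FBgn0002945, 3L, 19003741 to 19045449, minus strand), an antagonist of Wnt signalling that is induced by it, was at 177.2 to 554.2 CPM in null and at 298.1 to 618.4 CPM elsewhere. For both genes the null libraries overlapped those of FL and WT, and the log2 fold changes lay between -0.15 and 0.06 (95% intervals from -0.83 to 0.95 for *mid* against FL and from -0.65 to 0.35 for *nkd* against WT). Without the RUV factor, *gsb-n*, *mid* and *nkd* stood at -0.59, -0.39 and -0.41 against FL, and at -0.83, -0.16 and -0.29 against WT. None of these was called.

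As a set, 9 of 10 members had a negative log2 fold change in each null comparison, as did 5648 of 11978 tested genes against FL and 5750 against WT. The median of the members was -0.65 against FL and -0.59 against WT, where the medians over all tested genes were 0.05 and 0.03. The signs depended on the model. With the late-minus-early score as covariate, *en*, *ptc*, *gsb-n* and *nkd* turned positive against FL and *mid* negative. At an unadjusted p under 0.05, 4 members were lower against FL (*inv*, *hh*, *ci*, *gsb*) and 4 against WT (*en*, *inv*, *hh*, *ci*), where 3.72% and 5.29% of all tested genes were lower. The null libraries lay wholly below FL for 5 members (*inv*, *wg*, *hh*, *ci*, *gsb*) and wholly below WT for 3 (*inv*, *hh*, *ci*), a pattern seen in 8.46% and 4.15% of all tested genes. These counts share the null libraries and were made on genes that vary together, so they are given as a description. Without null replicate 3 the number called rose to 5 against FL (*en*, *inv*, *ptc*, *ci*, *gsb*) and to 4 against WT (*en*, *inv*, *ptc*, *ci*), while the share of all tested genes called rose to 2.61% and 2.33%. That library was the highest null library for all 10 members, so leaving it out could only lower their null means.

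**Figure D2:**
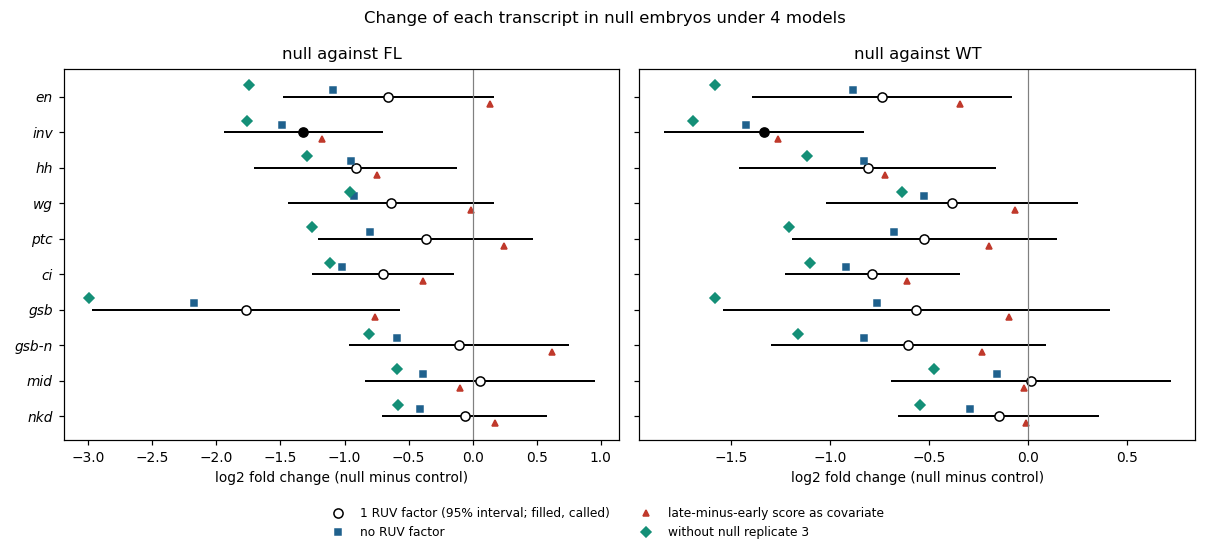
Log2 fold change of each gene in null against FL (left) and null against WT (right). Circles with 95% intervals are the fit with 1 RUV factor, filled where called (*inv*, -1.32 and -1.33), and the other symbols are fits without the RUV factor, with the late-minus-early score in its place, and without null replicate 3. Leaving out null replicate 3 moved every gene to more negative values, a direction that follows from its being the highest null library for every gene. The score moved the 9 negative estimates upward and that of *mid* below 0.

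The second question was whether the transgenes differed from each other or from WT. By edgeR 0 of 10 members were called in any of the 6 comparisons among FL, FLWF24, ΔN and WT, and by DESeq2 0 as well. DESeq2 called 1.73% to 3.06% of all tested genes in these comparisons, and edgeR few. Relative to WT the edgeR shares were 0.0918% for FL, 0.184% for FLWF24 and 0.0751% for ΔN. Relative to FL they were 0.025% for FLWF24 and 0.0167% for ΔN, and the share was 0.342% between ΔN and FLWF24. At an unadjusted p under 0.05 there was 1 member, *gsb*, higher in FL than in WT, and 0 in each of the other 5 comparisons.

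That difference of *gsb* in FL against WT was 1.20 on the log2 scale (SE 0.504, p 0.0257 by the edgeR fit, adjusted p 0.485), and every FL library was above every WT library. *gsb* was at 18.8 to 34.9 CPM in FLWF24 and 14.1 to 47.8 CPM in ΔN, with log2 fold changes against WT of 0.85 (adjusted p 0.541) and 0.74 (adjusted p 0.603). For *inv*, the difference from WT was -0.01 in FL (95% interval -0.53 to 0.51), -0.16 in FLWF24 (-0.62 to 0.29) and 0.04 in ΔN (-0.44 to 0.51). Each of these intervals lies above the estimate of -1.33 for null against WT. The 3 transgenic genotypes carry the same mutant alleles as null but also had lower late-minus-early scores (means of 1.01 to 2.57 against 5.42). The cause of the difference from null was not tested. *ci* was lower in every FLWF24 library than in every FL and WT library, by 0.23 and 0.32 on the log2 scale in the fit, with adjusted p-values of 1 and 0.644.

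Ratios of 2 transcripts within a library do not depend on how libraries are scaled. A set of 4 was compared over the 8 comparisons, by two-sided exact permutation tests with adjustment over 32 tests, and 0 passed. With groups of this size a single difference could not pass that adjustment even when fully separated. No conclusion is drawn from the lack of passing ratios. The log2 ratio of *gsb-n* to *gsb* averaged -0.42 for FL (SD 0.40, n = 3), 0.19 for FLWF24 (SD 0.29, n = 4), 0.58 for ΔN (SD 0.82, n = 4), 1.16 for null (SD 0.57, n = 4) and 1.20 for WT (SD 0.41, n = 4). FL did not overlap null or WT, and FLWF24 did not overlap WT. Each of these 3 differences had an exact permutation p of 0.0286, the smallest that groups of this size can give, and an adjusted p of 0.305. Null and WT differed by -0.04 (exact permutation p 0.914). The ratios of *en* to *inv*, *ptc* to *hh* and *wg* to *hh* overlapped between null and both FL and WT.

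**Figure D3:**
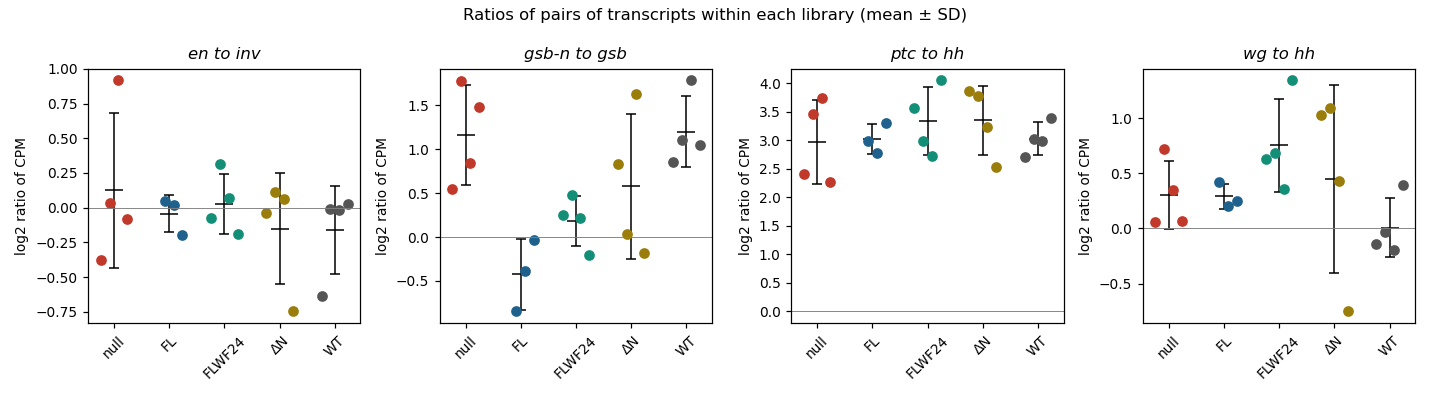
Log2 ratio of the CPM of 2 transcripts within each library (vertical axis) by genotype, for *en* to *inv*, *gsb-n* to *gsb*, *ptc* to *hh* and *wg* to *hh*. Points are libraries and bars are mean ± SD. For *gsb-n* to *gsb*, the 3 FL libraries are all below 0 and all null and WT libraries are above 0.5.

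The embryos were picked over several stages, so each gene was set against the late-minus-early score of its library. Over all 19 libraries, 9 of 10 members were negatively correlated with the score at an adjusted permutation p under 0.05 for Pearson's r, all but *mid*, and 5 of 10 for Spearman's rho (*en*, *wg*, *hh*, *ci*, *gsb*). An r at or below the weakest of those 9 (-0.56) was found in 13% of all tested genes. For *gsb* r was -0.84 (adjusted permutation p 3e-04) and rho -0.70 (adjusted p 0.0077). For *en* r was -0.81 (adjusted permutation p 0.00043) and rho -0.58 (adjusted p 0.026). For *inv* r was -0.76 (adjusted permutation p 0.00057) and rho -0.44 (adjusted p 0.077). These values include the difference between null and the rest, since 3 null libraries have the highest scores. Among the 15 libraries without null, 0 of 10 passed after adjustment. There r was 0.02 for *inv* (p 0.93), -0.41 for *en* (p 0.13), -0.57 for *gsb* (p 0.028, adjusted p 0.28) and -0.25 for *ci* (p 0.38), all by permutation. With the genotype means removed, *gsb-n* had the strongest relation (r -0.66, permutation p 0.005, adjusted p 0.05), and *inv* had -0.22 (p 0.46).

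The 2 libraries farthest from the median score were null replicates 1 and 4, with scores of 6.35 and 6.2. When they were left out of the 19, r fell in size for all 10 genes, to -0.73 for *gsb*, -0.63 for *en* and -0.52 for *inv*, and that of *mid* turned from -0.31 to 0.18. This took out part of the null group, and null replicate 2, with a score of 5.53, remained. Of the libraries of other genotypes, 6 had a score within 0.5 of that of null replicate 3 (3.61). Null replicate 3 held 68.7 CPM of *inv*, below all 6 (88.7 to 153.8 CPM), while its *en* level of 130.3 CPM lay inside their range (90.3 to 149.9 CPM). Its *hh* level of 42.5 CPM was also below all 6 (45.5 to 70.0 CPM). Its *mid* level of 135.6 CPM was above all 6 (51.6 to 126.6 CPM), and the remaining members lay inside the range.

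**Figure D4:**
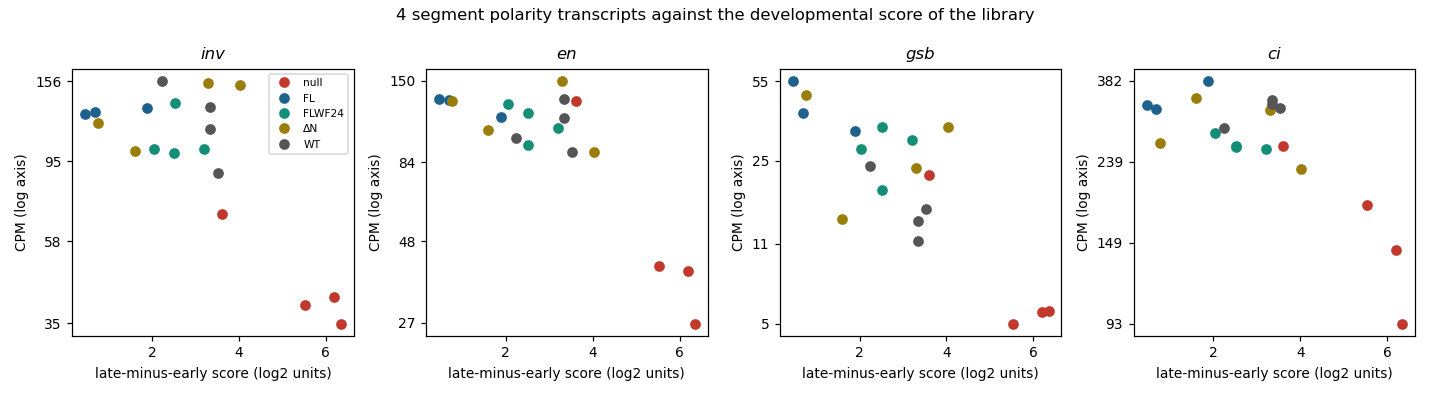
CPM of *inv*, *en*, *gsb* and *ci* (vertical log axes) against the late-minus-early score of the library (horizontal axis, log2 units), 1 point per library, coloured by genotype. In null, 3 libraries lie at scores above 5 where there are 0 libraries of other genotypes. The null library at 3.61 lies below the others for *inv* and among them for *en*, *gsb* and *ci*.

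How the members varied together was described by Pearson's r of their log2 levels over the 19 libraries with genotype means removed. These points share depth, stage and pooled embryos, so the values carry no test. The spread within a genotype was largest in null for *ptc* (SD 204.4 CPM, against 49.1 to 142.1 CPM in the other genotypes) and for *en* (47.9 against 8.99 to 26.3 CPM). Differences among the null libraries therefore weigh heavily in the values for these genes. The closest pair was *ptc* and *ci* (r 0.92), followed by *ptc* and *nkd* (0.89), *mid* and *nkd* (0.87) and *en* and *ptc* (0.86). Of all tested genes, 5% had an r above 0.709 with *ptc*, above 0.61 with *mid* and above 0.661 with *en*. By likeness to *ptc*, *ci* was at rank 30 among all tested genes, *nkd* at 71 and *en* at 118. The neighbours *en* and *inv* had an r of 0.68, which placed *en* at rank 44 among all tested genes by likeness to *inv* and *inv* at rank 514 by likeness to *en*, while *gsb* and *gsb-n* had 0.56. *hh* stood apart, with r of at most 0.56 to any other member. The genes most like *en* were *Esp* (0.93), *bowl* (0.92) and *E(spl)malpha-BFM* (0.92), and those most like *wg* were *Lime* (0.94), *zld* (0.92) and *ASPP* (0.91).

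Other genes of these pathways were read from lists of 21 Hedgehog pathway genes, 25 Wnt pathway genes and 13 paralogs and related genes. In the edgeR fit with 1 RUV factor and all 19 libraries, 0 were called in any of the 8 comparisons. Between null and FL, the Hedgehog list had 2 genes higher and 1 lower at an unadjusted p under 0.05, and the Wnt list 1 and 1. Over all 11978 tested genes, 951 were higher and 446 lower. In null against WT the numbers were 2 and 1 for Hedgehog, 0 and 3 for Wnt, and 747 and 634 over all tested genes. DESeq2 called *rdx* higher and *fz* lower in null than in WT, and 0 listed genes between null and FL. Without the RUV factor, edgeR called *rdx*, *Pka-C1*, *Apc* and *Swim* higher and *disp* and *fz* lower in null than in FL. Relative to WT it called *rdx* higher and *fz* lower. The shares of all tested genes called without the factor were 10.9% and 1.47%. Without null replicate 3, edgeR called *rdx* and *fz* in the same directions relative to WT, and *ihog*, a Hedgehog co-receptor, lower relative to FL. *rdx*, an adaptor that directs Ci protein to degradation, stood at 0.75 on the log2 scale relative to FL (adjusted p 0.266, edgeR) and 0.91 against WT (adjusted p 0.056). *fz*, a Wnt receptor, had -0.62 (adjusted p 0.329) and -0.75 (adjusted p 0.0874). The genes named from these lists were chosen after their values were seen.

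Among the paralogs next to members, *H15*, the T-box neighbour of *mid* at 45045 bp, was at 10.01 to 16.6 CPM in null, 2.20 to 5.45 CPM in FL and 2.23 to 19.3 CPM in WT. Its log2 fold change against FL was 3.06 with an SE of 1.41 (adjusted p 0.403, edgeR), and against WT 0.91 (adjusted p 0.821). *Wnt4* and *Wnt6*, which flank *wg*, had 133.3 ± 62.5 and 13.2 ± 4.36 CPM in null (SD, n = 4) and 165.2 ± 21.0 and 18.8 ± 5.43 CPM in WT (n = 4), with adjusted p-values of 0.943 and 0.554. *Wnt10* was at 0 to 5.32 CPM in all 19 libraries, too low for a comparison.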

How the data were processed

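The values were deposited as raw counts for each gene, which the authors made by trimming reads with Trimmomatic, mapping them with HISAT2 and counting with htseq-count 0.11.1 at default, strand-aware settings. Whether the library kit keeps strand is not given in the sources used here. The header of the table was shifted by 1 cell and its names were read in order. The FL columns, numbered 2 to 4 there, could be matched to their group but not to single samples.

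Rows that name no gene and 138 rRNA genes were left out. Positions are from Ensembl release 115 (BDGP6, the assembly of the counts). Counts were tested with edgeR 4.0.16 in R 4.3.3 (filterByExpr by genotype, TMM, robust quasi-likelihood, 1 RUVs factor, all 19 libraries). The study does not state the number of factors or the values they were estimated from. Alternatives were DESeq2 1.42.0, other scalings, filters and RUV settings, the score as covariate, the compared groups only, a replicate block and leaving out each library. The score used log2(CPM + 1), ratios log2(CPM + 0.5) and correlations 100000 permutations. P-values measure the spread between pools of embryos.

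All 10 members, and *H15*, *Wnt4*, *Wnt6*, *Wnt10*, any called pathway gene and the 3 genes most like *en* and *wg*, were to be named. Members and lists were chosen with earlier results of these data known. After the first results were seen, the removal of rRNA genes was widened from 115 genes, marked by biotype, to 138, which also took those with rRNA in their symbol. This raised the adjusted p of *inv* and ended a call of *ci* against WT, and the narrower removal is kept as an alternative. At that point 4 other inputs to the RUV factor were also tried, and all are kept as alternatives. The edgeR fit was also run on simulated counts with known changes. There the unwanted factor was drawn without regard to genotype, whereas in the data null and FL did not overlap in it. The simulation therefore does not check that setting.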

Additional observations from a re-analysis of the deposited data

Results flagged for a closer look

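In 40 groups of 4 libraries (10 genes in 4 genotypes), the farthest library was compared with the spread of its group, and 4 stood apart by Dixon's test, where chance flags about 1 in 20. *en* in null replicate 3 was at 130.3 CPM, with the nearest null library at 40.3 CPM. *gsb* in the same library was at 21.7 CPM (21.65), with the nearest at 5.67 CPM. *inv* in FLWF24 replicate 4 was at 136.6 CPM, with the nearest at 102.4 CPM. *ci* in FLWF24 replicate 2 was at 282.9 CPM, with the nearest at 261.5 CPM, in a group that spans 257.8 to 282.9 CPM.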

How the results depend on the processing

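In null against FL 1 member was called. The number was 0 with a mean of at least 10 counts, with the score as covariate, with the compared groups only and with the RUV factor from log2(CPM + 1), 4 without the RUV factor, 2 without it in the compared groups only, 9 without it and without null replicate 3, and 0 to 5 when 1 library was left out. In null against WT 1 was called, 2 by DESeq2, without the RUV factor, with the factor from unscaled log counts and with rRNA genes left out by biotype only, 0 with the score as covariate and in the compared groups only with or without the RUV factor, 7 without it and without null replicate 3, and 1 to 4 when 1 library was left out. The 2 settings without the RUV factor that change the samples, the 4 other RUV inputs and the narrower rRNA removal were chosen after seeing the data. Of the 4 other inputs, log CPM with a prior count of 1 or 2 left *inv* at adjusted p-values of 0.0407 and 0.0494 against FL and unscaled log counts at 0.0138, while log2(CPM + 1) gave 0.0871. Narrower rRNA removal gave 0.0238. In null against FL 0.501% of all tested genes were called, 0.432% with a mean of at least 10 counts and 0.0167% with the score. The share was 2.24% in the compared groups only and 0.242% with the RUV factor from log2(CPM + 1). Without the RUV factor it was 10.9%, 13.3% in the compared groups only, and 19.5% (2316 genes) when null replicate 3 was left out too. With 1 library left out it was 0.175% to 2.61%, and 0.31% to 2.33% in null against WT. In null against WT 76 of all tested genes were called, 343 by DESeq2, 176 without the RUV factor, 159 with the factor from unscaled log counts, 97 with narrower rRNA removal, 30 with the score, 25 in the compared groups only and 64 there without the factor, and 855 without the factor and null replicate 3. The causes were not tested.

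The direction of some members turned. Against FL, the score gave 0.14 for *en*, 0.24 for *ptc*, 0.62 for *gsb-n* and 0.18 for *nkd*, the compared groups only gave 0.0022, 0.28, 0.43 and 0.36, and the factor from log2(CPM + 1) gave 0.041 for *gsb-n* and 0.074 for *nkd*. *mid* against FL was -0.062 with upper-quartile scaling, -0.39 without the RUV factor, -0.095 with the score, -0.45 without the factor in the compared groups only, -0.83 without it and null replicate 3, and -0.044 with narrower rRNA removal. *mid* against WT was -0.096, -0.16, -0.021, -0.16, -0.60 and -0.062 in the same settings, -0.0056 with 2 RUV factors and -0.047 with unscaled log counts. With 1 library left out, the ranges were -0.81 to 0.060 for *gsb-n*, -0.59 to 0.37 for *mid* and -0.59 to 0.037 for *nkd* against FL, and -0.47 to 0.18 for *mid* against WT. *inv*, *hh*, *wg*, *ci* and *gsb* were negative in every fit run.

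Replicate numbers did not pair the libraries, since 4 of 16 correlated best with their own number. With the replicate block, over the 16 libraries without FL, 1 member, *inv*, was called in null against WT (log2 fold change -1.36, adjusted p 0.0238) and 0 in the other comparisons.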
